A study of Homo sapiens with 10 samples.

Results

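The AP-1 factors are 8 transcription factor genes, FOS, FOSB, FOSL1, FOSL2, JUN, JUNB, JUND and ATF3, whose H3K27ac (histone H3 acetylated on lysine 27) was followed in H1975 cells. The members were all regions of the deposited annotated count table that carry the symbol of one of these genes. There were 65 such regions among 67387 annotated and 169637 counted regions, each 502 bp wide. H1975 is an established human lung adenocarcinoma cell line with mutant EGFR, the receptor tyrosine kinase that osimertinib inhibits. The DMSO group was grown for 21 days in medium with no drug and then received the solvent DMSO for 3 days. The osi_DTP group, named for drug-tolerant persister cells, was kept in osimertinib at 500 nM for 24 days. The third group, osi_DTP_AZD5153_combo in the labels and combo here, received osimertinib at 500 nM for 21 days and then AZD5153, a BET bromodomain inhibitor, at 150 nM for 3 days. The labels do not state whether osimertinib was still present during those last 3 days. Each group had 3 libraries described as biological replicates of the same cell line, and 1 input library, pooled and without antibody enrichment, gave the background.

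AP-1 is a dimer of basic leucine zipper (bZIP) proteins. JUN, JUNB and JUND can pair with each other or with a FOS family partner (FOS, FOSB, FOSL1 or FOSL2), and ATF3 pairs with JUN proteins or with itself. The dimers bind short palindromic sites, many of them in enhancers, and FOS, FOSB, JUN, JUNB and ATF3 are immediate-early genes that growth factor or stress signals switch on within minutes, while FOSL1 is a target of sustained growth factor signalling, such as that from EGFR. H3K27ac marks active promoters and enhancers, so a change in it is a change in the chromatin of these genes and is no measure of their RNA or protein. In these bulk samples, fewer cells that carry the mark and less of it per cell cannot be told apart.

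Regions within 1 kb of a transcript start are called promoter regions here, and all others non-promoter regions. FOSL2 had 24 regions (3 promoter and 21 non-promoter), FOSL1 had 10 (2 and 8), JUN had 9 (3 and 6), ATF3 had 8 (3 and 5), FOS had 7 (2 and 5), JUND had 4 (2 and 2), JUNB had 2, both non-promoter, and FOSB had 1, a promoter region. Regions of a gene are neighbours and are not independent replicates. By annotation class, 16 of the 65 regions lay at a promoter, 16 in an intron, 11 in distal intergenic sequence, 7 in an exon, 6 at 1 to 2 kb and 6 at 2 to 3 kb from a start, 2 in a 3′ UTR, both of FOSL2, and 1 downstream of a gene. Coordinates are those of the deposited tables in hg38. Gene assignment is by nearest transcript start, so it does not show which gene a distal region acts on. All 65 regions passed the filter on low counts and were tested. At 60 of them all 3 DMSO libraries reached the filter's cutoff of 1.08 CPM (10 reads at the median total), and at 2, both upstream of FOS, none did.

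Total counts over all regions ranged from 6263443 to 10463351 in the 9 H3K27ac libraries, with 1870885 in the input. The lowest total belonged to combo replicate 3. Of the counts in annotated regions, promoter regions took 40.3 to 45.9% in 7 libraries, 59.8% in osi_DTP replicate 2 and 66.7% in combo replicate 3. By this share these 2 libraries stood apart from the other libraries of their groups. Combo replicate 3 also had low rank correlations with combo replicates 1 and 2 (Spearman 0.43 and 0.354, against 0.89 between those 2). They were below its correlations with the osi_DTP libraries (0.466 to 0.587). For osi_DTP replicate 2 the values within its group were 0.822 and 0.818, against 0.835 between the other 2. Results that rest on these 2 libraries are therefore also given without combo replicate 3 and without both, the last being an alternative chosen after the data were seen. All 8 epithelial or lung markers had promoter regions, whose summed signal ranged among all genes from percentile 52 (KRT18) over 60.1 (NKX2-1), 66.2 (CDH1), 68.3 (NAPSA), 91 (EPCAM) and 93.6 (KRT19) to 99.8 (KRT7 and KRT8). Among markers of other cell types, PTPRC and CD3E had no annotated region and PECAM1 had no promoter region, while the promoter of COL1A1 was at percentile 32.1. Levels are given as CPM, the count scaled to a common library size after TMM normalisation. Intervals are 95% intervals of the fitted difference.

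Promoter sequence is shown for FOS, JUN and FOSL2, since the promoter regions of these genes are followed below and since the windows hold short sites of the kind that bZIP factors bind. They are the 250 bases before each RefSeq start (GRCh38.p14), read along transcription, with the site in capitals.
FOS, chr14:75278578-75278827, plus strand: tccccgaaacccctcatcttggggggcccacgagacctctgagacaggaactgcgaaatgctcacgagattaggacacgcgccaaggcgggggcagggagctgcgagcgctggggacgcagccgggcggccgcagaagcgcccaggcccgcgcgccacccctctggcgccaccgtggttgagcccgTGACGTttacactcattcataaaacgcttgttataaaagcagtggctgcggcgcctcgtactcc
JUN, chr1:58784048-58784297, minus strand: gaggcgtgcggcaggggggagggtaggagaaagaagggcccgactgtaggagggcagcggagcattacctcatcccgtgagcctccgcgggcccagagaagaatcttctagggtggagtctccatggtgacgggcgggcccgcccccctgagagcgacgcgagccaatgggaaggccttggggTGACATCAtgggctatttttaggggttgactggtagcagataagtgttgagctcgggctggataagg
FOSL2, chr2:28392608-28392857, plus strand: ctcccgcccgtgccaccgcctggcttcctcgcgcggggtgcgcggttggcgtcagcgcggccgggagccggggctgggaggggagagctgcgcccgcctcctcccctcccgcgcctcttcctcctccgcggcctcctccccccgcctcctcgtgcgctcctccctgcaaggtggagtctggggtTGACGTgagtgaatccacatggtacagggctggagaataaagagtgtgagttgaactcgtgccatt
The capitals mark TGACGT, 64 bases before the start in FOS and 66 in FOSL2, and TGACATCA, 67 bases before the start in JUN. The search covered both strands. TGACGT or its reverse complement ACGTCA was in 7.1% of 35116 RefSeq promoter windows of this length, and TGACATCA or TGATGTCA in 2.37%. The FOSB and JUND windows also held TGACGT, and an ATF3 window held TGACATCA. The full palindrome TGACGTCA, which contains TGACGT, was in 1.65% of windows and among the AP-1 genes in the JUND window, at position -200 from its start. The AP-1 site TGACTCA or TGAGTCA was in 4.2% of windows and in none of the windows found for the AP-1 genes. FOSL1 was not matched. The acetylated FOS region at chr14:75278410-75278911 spanned all 250 bases of the window, whereas the JUN and FOSL2 regions overlapped 36 and 40 bases of theirs. The marked FOS site thus lay inside an acetylated region, and the marked JUN and FOSL2 sites lay outside the overlapping regions. A match of letters does not show a bound site.

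The first comparison, osi_DTP against DMSO, asks how the acetylation of these genes differed in cells that had survived osimertinib. A pair of regions 11 to 12 kb upstream of FOS and 2 regions of ATF3 rose, and 4 non-promoter regions of FOSL1 fell, so that 8 of the 65 regions passed an adjusted p of 0.05 (edgeR quasi-likelihood test, Benjamini-Hochberg adjustment over all 157919 tested regions). Among all tested regions 5.58% rose and 5.13% fell, so the 4 higher and 4 lower members of 65 are a share near that of the genome. The median log2 fold change was 0.59 over the members and 0.15 over all tested regions, but -0.01 and 0.06 without both promoter-heavy libraries. The 3 osi_DTP libraries were all above the 3 DMSO libraries at 21 members and all below them at 18, against 20.2% and 18.9% of all tested regions. The count was 25 (14 higher, 11 lower) without combo replicate 3, when 14.2% and 12.7% of all regions were called, and 26 (10 higher, 16 lower) without both promoter-heavy libraries, when 14.9% and 12% were. It was 2 without DMSO replicate 2, DMSO replicate 3 or osi_DTP replicate 3, 3 without osi_DTP replicate 2, 4 without DMSO replicate 1 and 5 without osi_DTP replicate 1, while the share of all regions called in either direction ranged from 0.701% (without DMSO replicate 2) to 5.2% (without osi_DTP replicate 1).

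In combo against DMSO, which asks how the sequentially treated cells differed from untreated cells, 6 members rose (2 each of FOS, ATF3 and FOSL2) and 1 of FOSL1 fell (edgeR, adjusted p under 0.05), against 9.05% of all tested regions higher and 9.01% lower. The split was 5 higher and 2 lower with library sizes not scaled by TMM. The median log2 fold change was 0.53 over members and 0.23 over all regions, but -0.04 and -0.11 without combo replicate 3, and 0.04 and -0.04 without both promoter-heavy libraries. Combo libraries were all above DMSO at 14 members and all below at 8, against 14.4% and 19% of all tested regions. The count was 18 (11 higher, 7 lower) without combo replicate 3, when 18.4% of all regions were higher and 17.3% lower, and 26 (16 higher, 10 lower) without both promoter-heavy libraries, when 22.8% and 19.8% were. It was 11 without combo replicate 2 (14.2% of all regions in either direction), 3 without DMSO replicate 1 (10.6%) and 2 without DMSO replicate 2 (5.16%) or 3 (6.14%). Combo differed from osi_DTP in AZD5153 and possibly in osimertinib over the last 3 days, and these cannot be told apart. In combo against osi_DTP, 0 members and 0% of all tested regions passed in either direction (edgeR, the smallest adjusted p of a member being 1). There, 7 members had an unadjusted p under 0.05, and DESeq2 also called 0 members. The comparisons with DMSO share the DMSO libraries, and the values of each are given side by side. Without both promoter-heavy libraries, 4 members were higher in combo than in osi_DTP, against 1.13% of all regions, and they are described with FOSL1 and FOSL2.

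**Figure D1:**
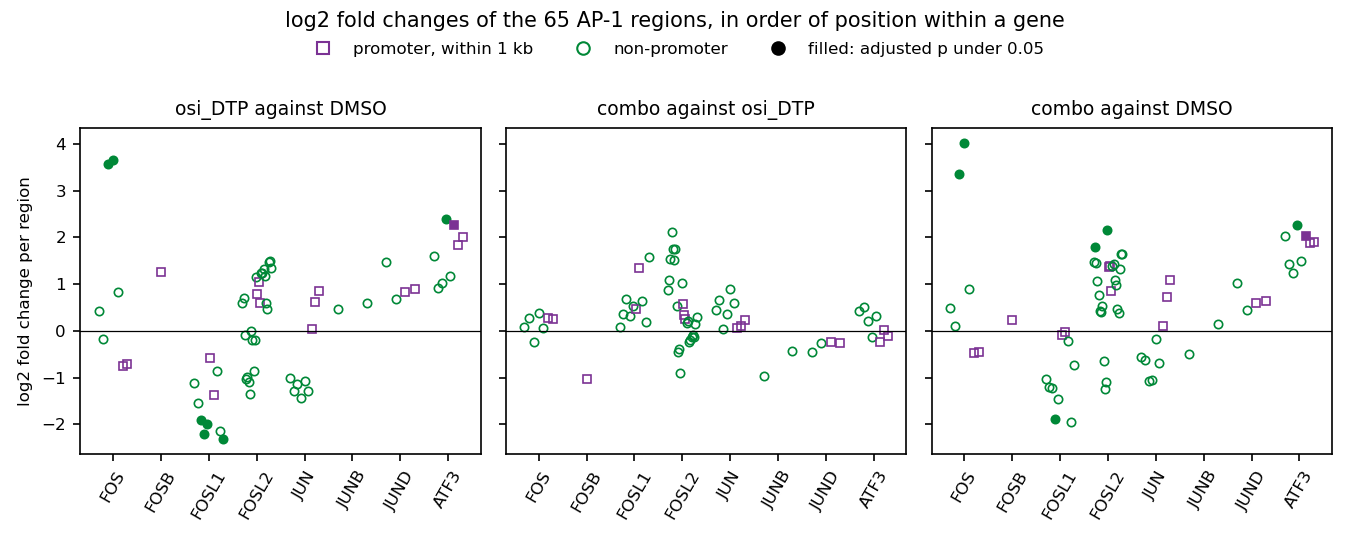
log2 fold changes of the 65 AP-1 regions in the 3 comparisons, grouped by gene on the x axis and in order of position within a gene. Squares are promoter regions, circles non-promoter regions, and filled symbols passed an adjusted p of 0.05. The 2 FOS regions above 3, the FOSL1 regions below 0 and the ATF3 regions above 0 stand out in both comparisons with DMSO.

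FOS, the founding member of its family, had 2 of 5 non-promoter regions called higher in the treated groups. At its promoter the fitted values were lower and not called with all libraries. The region at chr14:75266133-75266634 (-12192 bp from the nearest transcript start) held 6, 2 and 5 reads in DMSO, 49, 39 and 54 in osi_DTP and 40, 46 and 20 in combo, with 6 in the input. Its neighbour at chr14:75267138-75267639 (-11187 bp) held 5, 7 and 6 reads in DMSO, 66, 61 and 79 in osi_DTP and 106, 125 and 22 in combo, with 14 in the input. The input counts equalled or exceeded every DMSO count although the input total was the lowest of all libraries. Every treated library was above every DMSO library at both. Both lie between genes in RefSeq, although the deposited annotation places them in an intron and an exon of a transcript.

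The log2 fold changes in osi_DTP against DMSO were 3.58 ± 0.63 (SE) and 3.65 ± 0.64, with adjusted p of 0.00392 and 0.00406 (edgeR). Against DMSO, combo gave 3.35 ± 0.63 and 4.03 ± 0.65, with adjusted p of 0.00266 and 0.00147. In DMSO neither region reached the filter's cutoff in any library, so both were tested only because they were higher in the treated groups, and the fold changes rest on 2 to 7 reads in each DMSO library. These 4 calls were kept when any of the 9 libraries was left out. In combo against osi_DTP the differences were -0.23 (-1.28 to 0.82) and 0.38 (-0.70 to 1.46), and neither passed the test. The peak lists come from the same reads as these counts and are no separate support. No DMSO library had a peak over either region, all 3 osi_DTP libraries had one over both, and combo libraries had one in 3 and in 2 of 3 lists. The 2 upstream regions about 19 kb from FOS, at 10.6 to 18.9 CPM in DMSO and 9.87 to 28.5 CPM in osi_DTP, did not pass the test.

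At the FOS promoter the region over the start, chr14:75278410-75278911, stood at 15.7, 31.6 and 20.4 CPM in DMSO, 8.41, 29.8 and 3.22 CPM in osi_DTP and 7.92, 12.1 and 29.8 CPM in combo. The groups overlapped through osi_DTP replicate 2 and combo replicate 3, the 2 promoter-heavy libraries, while their other libraries were below every DMSO library. The log2 fold change was -0.71 ± 0.71 in osi_DTP and -0.45 ± 0.71 in combo against DMSO, neither called (adjusted p of 0.589 and 0.714). They were -1.92 ± 0.44 and -1.09 ± 0.42, with adjusted p of 0.00168 and 0.0368 (edgeR), without both promoter-heavy libraries. The other promoter region, chr14:75277881-75278382, stood at 4.35, 12.9 and 8.45 CPM in DMSO and 4.88, 6.26 and 4.13 CPM in osi_DTP. In combo it stood at 3.21, 6.17 and 9.28 CPM, so the groups overlapped. With all libraries the FOS promoter sum gave -0.99 ± 0.44 in osi_DTP and -0.72 ± 0.44 in combo (adjusted p of 0.21 and 0.302, edgeR).

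FOSB, a close relative of FOS, had a single region, chr19:45469373-45469874, which the deposited annotation places at the start of a transcript, 1.63 kb inside the RefSeq gene. It was weak, at 3.64 CPM on average over the 9 libraries, percentile 4.29 of promoter regions. It stood at 2.72, 2.58 and 1.81 CPM in DMSO, 3.25, 11 and 3.02 CPM in osi_DTP and 2, 2.91 and 3.48 CPM in combo. The mean in osi_DTP rests on replicate 2, and no comparison passed the test.

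FOSL1, which encodes FRA-1, had lower fitted levels at all 10 regions in osi_DTP than in DMSO, and 4 of them passed the test. Just inside the gene, chr11:65898415-65898916 fell from 17.4, 23.6 and 19.3 CPM in DMSO to 5.16, 5.71 and 4.23 CPM in osi_DTP, and stood at 8.22, 8.03 and 5.61 CPM in combo. Next to it, chr11:65897590-65898091 fell from 9.79, 10.4 and 11.1 CPM to 3.06, 2.09 and 1.61 CPM and stood at 3.21, 2.21 and 3.09 CPM in combo. At both, every treated library was below every DMSO library.

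The log2 fold changes of these 2 regions in osi_DTP against DMSO were -1.996 ± 0.52 (adjusted p = 0.0219, edgeR) and -2.20 ± 0.54 (0.0165). Another region of the gene body, chr11:65896899-65897400, fell by 1.90 ± 0.54 on the log2 scale (0.0329). Upstream, chr11:65909307-65909808, in intergenic sequence (-8734 bp from the start), fell from 7.62, 9.5 and 8.25 CPM to 1.63, 1.95 and 1.51 CPM, a log2 fold change of -2.31 ± 0.58 (0.0184). These calls were lost on leaving out DMSO replicate 2 or 3 or osi_DTP replicate 2 or 3, and some also without DMSO replicate 1 or osi_DTP replicate 1, with adjusted p of at most 0.155. Only chr11:65897590-65898091 passed in combo against DMSO, at -1.88 ± 0.54 (0.0225). That call was lost without any DMSO library or combo replicate 1 or 2, with adjusted p of at most 0.0905. Without combo replicate 3, 7 FOSL1 regions were lower in osi_DTP and 6 in combo than in DMSO (edgeR, adjusted p under 0.05). Of all tested regions, 12.7% and 17.3% were lower in these comparisons.

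The intergenic FOSL1 region had higher values in combo than in osi_DTP. At chr11:65909307-65909808 combo stood at 8.22, 4.42 and 2.51 CPM, every value above those of osi_DTP, and the log2 fold change in combo against osi_DTP was 1.59 (0.46 to 2.72, not called). It was 2.05 ± 0.51 without both promoter-heavy libraries, with an adjusted p of 0.0375 (edgeR). All 3 DMSO lists, no osi_DTP list and 2 combo lists had a peak there. Its neighbour at chr11:65908039-65908540 was under a peak in all 3 DMSO lists and in none of the treated lists, at 2.89 to 5.53 CPM in DMSO and 0.139 to 1.34 CPM in osi_DTP (adjusted p = 0.0617, and 0.0323 with a replicate block, edgeR). The FOSL1 promoter region of highest level, chr11:65899537-65900038, stood at 41.2, 49.9 and 41.1 CPM in DMSO and 18.4, 59.7 and 11 CPM in osi_DTP, so it was lower in 2 of 3 libraries and higher in the promoter-heavy one.

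**Figure D2:**
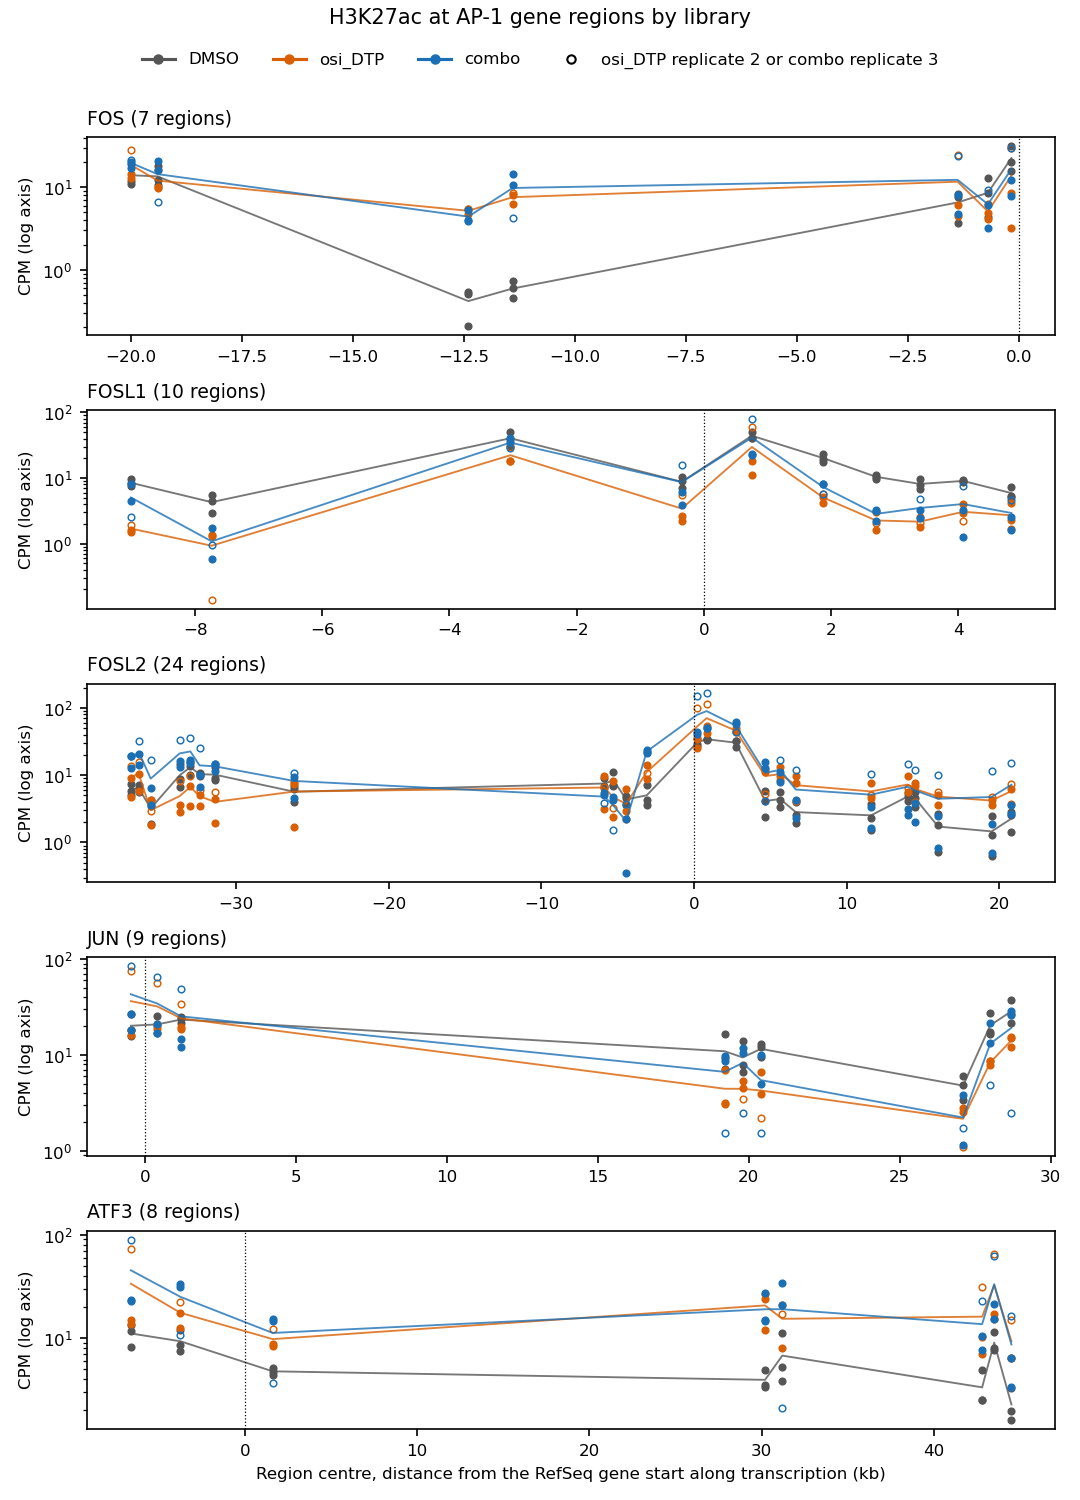
H3K27ac level of each region (CPM, log axis) by the distance of its centre from the RefSeq gene start (kb) for FOS, FOSL1, FOSL2, JUN and ATF3. Points are libraries, lines join group means, and open points are osi_DTP replicate 2 and combo replicate 3. The lines of the treated groups lie above that of DMSO across ATF3 and at 2 upstream FOS regions and below it across FOSL1. The open points lie high at the promoters of FOSL2 and JUN.

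**Figure D3:**
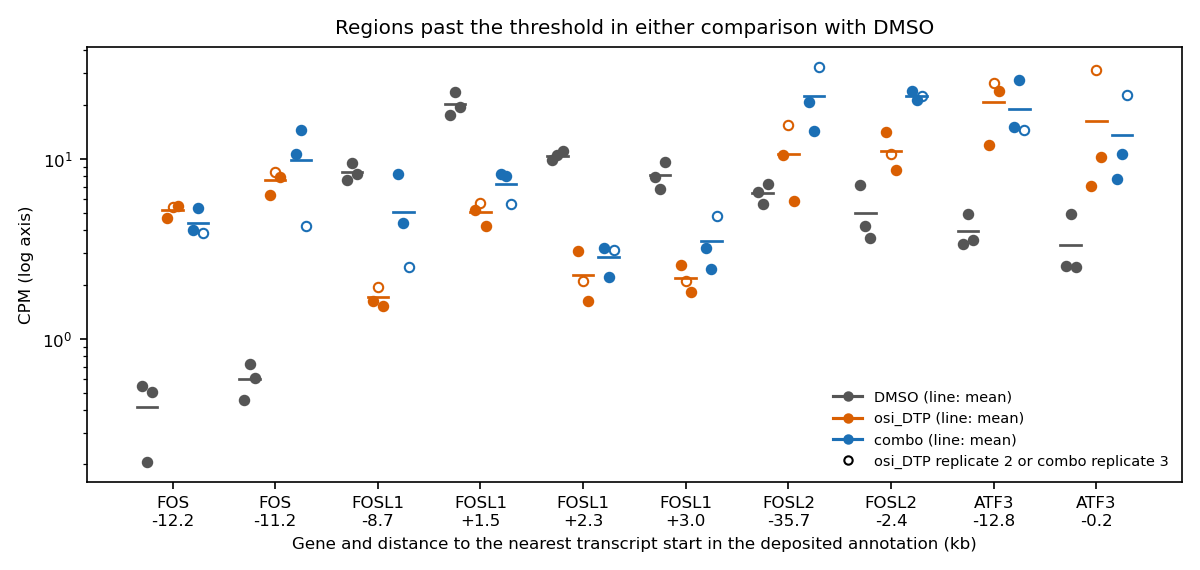
CPM (log axis) in each of the 9 libraries for the 10 regions that passed an adjusted p of 0.05 in either comparison with DMSO, labelled by gene and distance to the nearest transcript start. Short lines are group means and open points the 2 promoter-heavy libraries. At both FOS regions every treated library lies above all DMSO libraries.

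FOSL2, which encodes FRA-2, had regions with values in both directions. At chr2:28393435-28393936, just inside the gene, the level was 34.6, 34.9 and 33.1 CPM in DMSO, 53.4, 115.5 and 42.1 CPM in osi_DTP and 50.8, 50.7 and 166.8 CPM in combo. All treated libraries were above all DMSO libraries, with the promoter-heavy ones highest, and the log2 fold change was 1.04 ± 0.56 in osi_DTP and 1.38 ± 0.57 in combo, neither called (adjusted p of 0.26 and 0.0983, edgeR). The first was 0.53 without osi_DTP replicate 2 and the second 0.56 without combo replicate 3. Without both they were 0.51 ± 0.28 (0.177) and 0.65 ± 0.28 (0.0564). The region at chr2:28389509-28390010 (-2438 bp) inside the antisense gene FOSL2-AS1 held 7.16, 4.23 and 3.62 CPM in DMSO, 14.1, 10.6 and 8.66 CPM in osi_DTP and 23.7, 21.2 and 22.4 CPM in combo. The 3 groups did not overlap, and combo against DMSO passed the test at 2.16 ± 0.54 (0.0115), a call lost without DMSO replicate 2 (0.0799) or 3 (0.0936). The value in osi_DTP against DMSO was 1.15 ± 0.53 (0.176) and in combo against osi_DTP 1.02 (-0.0040 to 2.03), neither called.

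Further upstream of FOSL2, in intergenic sequence 30 to 37 kb from its start, regions differed among themselves. The region at chr2:28356217-28356718 stood at 6.53, 5.58 and 7.24 CPM in DMSO, 10.5, 15.5 and 5.84 CPM in osi_DTP and 20.6, 14.2 and 32.5 CPM in combo, and was called in combo against DMSO at 1.79 ± 0.56 (adjusted p = 0.0349, edgeR). That call was lost without any DMSO library, osi_DTP replicate 1 or combo replicate 1, and without TMM, with adjusted p of at most 0.153. A few kb nearer, 4 regions overlapping the gene LOC105374382 had the opposite value in osi_DTP. Of these, chr2:28361220-28361721 stood at 8.43, 13 and 9.05 CPM in DMSO, 4.4, 5.71 and 1.91 CPM in osi_DTP and 14.5, 11.5 and 14.5 CPM in combo. Its 3 osi_DTP values were below all 6 others. The log2 fold changes, none called with all libraries, were -1.35 ± 0.55 in osi_DTP against DMSO (0.128) and 1.76 (0.66 to 2.86) in combo against osi_DTP. At chr2:28358884-28359385 the difference in combo against osi_DTP was 2.11 (0.90 to 3.32), the highest of any member. Without both promoter-heavy libraries all 4 fell in osi_DTP against DMSO (adjusted p of 0.00622 to 0.029, edgeR) and 3 of the 4 rose in combo against osi_DTP (0.0208 to 0.0433). In that fit 12% of all tested regions fell in the first comparison and 1.13% rose in the second. At chr2:28358884-28359385, the first of the 4, a peak was called in 3 DMSO, 1 osi_DTP and 3 combo lists.

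Along the FOSL2 gene body the 9 regions from 4.67 to 20.8 kb past the RefSeq start had fitted values above 0 in osi_DTP against DMSO, and none was called with all libraries. At 4 of them, 8.65 to 17.9 kb from the nearest start, no DMSO list and all 3 osi_DTP lists had a peak. In combo these had a peak in 2, 1, 1 and 1 of 3 lists. Of these, chr2:28412141-28412642 stood at 2.45, 0.62 and 1.31 CPM in DMSO, 4.21, 4.73 and 3.63 CPM in osi_DTP and 1.9, 0.7 and 11.6 CPM in combo. There, combo was above the DMSO range only in the promoter-heavy replicate 3. Without combo replicate 3, 7 FOSL2 regions rose and 1 fell in osi_DTP, all 24 regions being tested. In that fit 14.2% of all tested regions rose and 12.7% fell.

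JUN, the main partner of the FOS proteins, had a promoter with no called difference and a distal cluster with lower values in osi_DTP. The promoter region of highest level, chr1:58784262-58784763, stood at 15.7, 26.9 and 18.2 CPM in DMSO, 16.4, 74.9 and 18.3 CPM in osi_DTP and 18.2, 26.9 and 84.3 CPM in combo, so the 2 promoter-heavy libraries stood far above the others, whose groups overlapped. The 6 distal regions lay 19 to 28 kb past the start, in regions classed as introns that overlap LOC112268263 or LOC105378751. The region at chr1:58755772-58756273 stood at 16.6, 27.4 and 17.4 CPM in DMSO, 8.6, 8.77 and 7.86 CPM in osi_DTP and 21.4, 13.3 and 4.83 CPM in combo. All osi_DTP values were below all DMSO values, and the log2 fold change was -1.28 ± 0.58 (adjusted p = 0.167, edgeR). Without combo replicate 3 it was -1.29 ± 0.42 (0.0242) and 3 of the 6 distal regions fell, when 12.7% of all tested regions did. There were 2 such falls without both promoter-heavy libraries, when 12% of all tested regions fell.

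JUNB, which can oppose JUN in growth control, had both regions upstream of its start, at -1005 and -1896 bp, where they overlap the neighbouring gene HOOK2, so their signal cannot be given to one gene. The farther region, chr19:12789089-12789590, was the highest non-promoter region of the members at 41.3 CPM. It stood at 38.7, 47 and 34.3 CPM in DMSO, 45.3, 76.1 and 44.8 CPM in osi_DTP and 14.4, 25.7 and 45.6 CPM in combo. In combo, replicates 1 and 2 were below every other library, and replicate 3 was not. The log2 fold change was -0.96 (-1.98 to 0.06) in combo against osi_DTP and -0.49 ± 0.52 against DMSO (adjusted p = 0.563). The latter was -0.91 ± 0.31 without both promoter-heavy libraries, with an adjusted p of 0.0191 (edgeR).

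JUND, the most broadly expressed JUN protein, had its highest region at chr19:18280309-18280810, with 32.3, 23.7 and 22.1 CPM in DMSO, 44.1, 66.2 and 27.9 CPM in osi_DTP and 21.4, 15.7 and 80.6 CPM in combo. The groups overlapped in combo, whose replicates 1 and 2 were below all DMSO libraries and whose replicate 3 was the highest of all. No JUND region was called in any comparison, with all libraries or without the promoter-heavy ones.

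ATF3, a stress-induced factor that can repress or activate its targets, had fitted values above 0 at all 8 regions in both comparisons with DMSO. The region at chr1:212595329-212595830, in an intron about 30 kb into the gene, stood at 3.36, 4.96 and 3.52 CPM in DMSO, 12, 26.4 and 23.8 CPM in osi_DTP and 14.9, 27.6 and 14.5 CPM in combo. Every treated library was above every DMSO library. It rose by 2.39 ± 0.57 on the log2 scale in osi_DTP (adjusted p = 0.0143, edgeR) and by 2.27 ± 0.57 in combo (0.0116). The first call was lost without any DMSO library or osi_DTP replicate 3 and the second without any DMSO library, with adjusted p of at most 0.0998 and 0.0799.

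The promoter regions of ATF3 lay at an inner transcript start about 43 kb past the RefSeq gene start. There, chr1:212607919-212608420 stood at 2.54, 4.96 and 2.51 CPM in DMSO, 7.08, 31 and 10.3 CPM in osi_DTP and 7.72, 10.6 and 22.6 CPM in combo. Its log2 fold changes were 2.27 ± 0.67 (adjusted p = 0.0387, edgeR) in osi_DTP and 2.02 ± 0.67 (0.0437) in combo. In osi_DTP the call was lost with a replicate block (0.0523) and without any DMSO library or osi_DTP replicate 2 (0.203) or 3, and in combo without any DMSO library or osi_DTP replicate 3, at 0.188 or less. No DMSO list and all 6 treated lists had a peak over this region. Without both promoter-heavy libraries all 8 ATF3 regions rose in combo and 3 rose in osi_DTP (edgeR, adjusted p under 0.05). In that fit 22.8% of all tested regions rose in combo and 14.9% in osi_DTP.

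Summing regions per gene and class gives each gene 1 promoter and 1 non-promoter value, in CPM of the annotated table. Of 14 such sums, 3 passed in osi_DTP against DMSO: the ATF3 promoter sum rose by 1.70 ± 0.42 on the log2 scale (adjusted p = 0.0355, edgeR, adjusted over 21677 sums), the ATF3 non-promoter sum rose by 1.27 ± 0.28 (0.024) and the FOSL1 non-promoter sum fell by 1.496 ± 0.28 (0.015). Among all sums 4.13% rose and 5.06% fell. A replicate block was fitted over all 9 libraries. The data allow pairing by number for osi_DTP and DMSO, but the combo libraries, whose numbers did not pair, shared the block terms. In that fit only the FOSL1 sum was called (0.0487, edgeR) and the ATF3 sums were not (0.0804 and 0.0606). The FOSL1 non-promoter sum was 140.8, 135.9 and 167 CPM in DMSO, 61.7, 38.8 and 56.9 CPM in osi_DTP and 88.8, 76.7 and 56.4 CPM in combo. No treated value reached the DMSO range. The ATF3 non-promoter sum was 48.6, 53.9 and 44.2 CPM in DMSO, 84, 126.7 and 143.8 CPM in osi_DTP and 143.5, 166.6 and 118.4 CPM in combo, again with no overlap.

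In combo against DMSO the ATF3 non-promoter sum rose by 1.55 ± 0.28 (adjusted p = 0.00751, edgeR), the ATF3 promoter sum rose by 1.61 ± 0.42 (0.0282) and the FOSL1 non-promoter sum fell by 1.00 ± 0.28 (0.038), against 7% of all sums higher and 8.88% lower. In combo against osi_DTP 0 sums were called, of the members and of all genes (0%, edgeR); 2 member sums, FOSB and JUNB, had an unadjusted p under 0.05. The smallest adjusted p of a member sum there was 0.916, and DESeq2 called 0 member sums. The count for osi_DTP was 5 without combo replicate 3 (23.1% of all sums in either direction), 1 without DMSO replicate 1 (4.63%) and 0 without DMSO replicate 2 or 3 or osi_DTP replicate 2 or 3 (0.369 to 3.87%). For combo against DMSO it was 6 without combo replicate 3 (29.3%) and 1, the ATF3 non-promoter sum, on leaving out any of the DMSO libraries (5.35 to 10.4%). Without both promoter-heavy libraries 7 of 14 sums were called in osi_DTP and 8 in combo, against 28.1% and 42.8% of all sums. They included falls of the FOSL1 promoter (-1.43 ± 0.20, adjusted p = 0.00234, and -0.99 ± 0.20, 0.00553) and of the FOS promoter (-1.36 ± 0.33, 0.0193, and -1.13 ± 0.32, 0.0249), a rise of the FOSL2 promoter (0.58 ± 0.16, 0.0286, and 0.61 ± 0.16, 0.0166), a fall of the JUN non-promoter sum in osi_DTP (-0.88 ± 0.20, 0.0139) and a fall of the JUNB sum in combo (-0.94 ± 0.17, 0.00402).

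**Figure D4:**
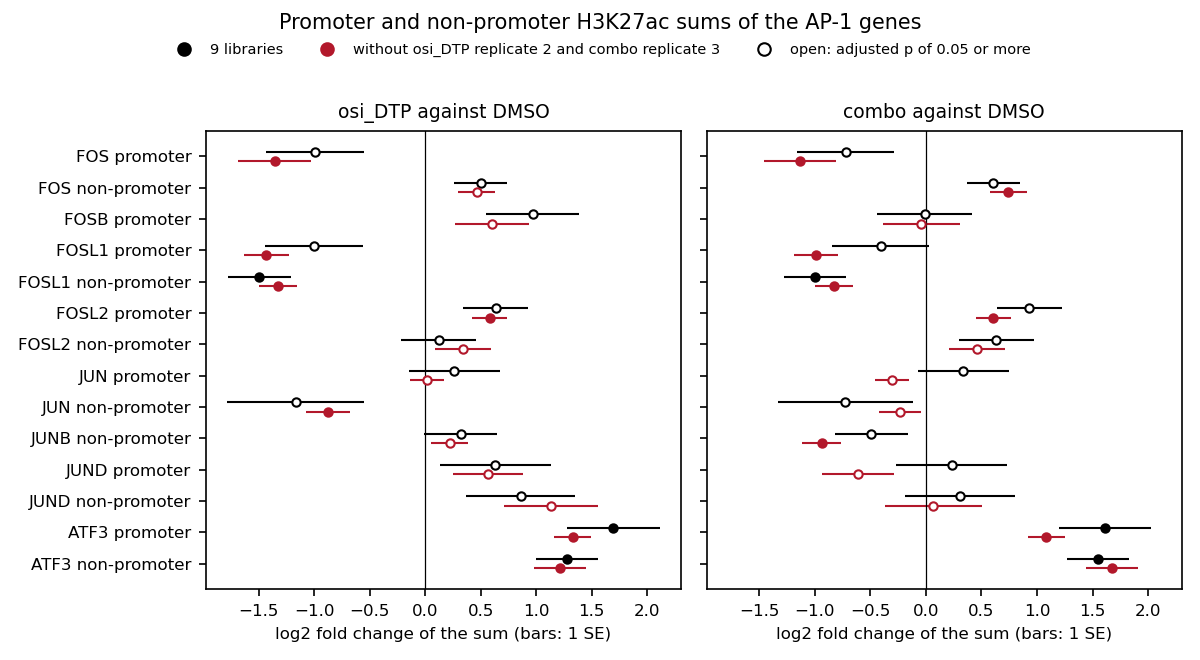
log2 fold change of the promoter and non-promoter H3K27ac sum of each AP-1 gene against DMSO, for osi_DTP and combo. Points are estimates with bars of 1 SE, black for all 9 libraries and red without osi_DTP replicate 2 and combo replicate 3, and filled where the adjusted p was under 0.05. ATF3 lies above 0 and FOSL1 below 0 in both panels, and the bars of most sums are shorter without the 2 libraries.

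The ratio of promoter to non-promoter signal within a library was set against DMSO for the 6 genes that had both classes at sufficient depth. The FOS ratio, as log2, was -0.39, -0.05 and -0.19 in DMSO, -1.59, -1.20 and -2.52 in osi_DTP and -2.43, -1.74 and -0.63 in combo. All 6 treated libraries were below all 3 DMSO libraries, including the 2 in which promoters took a high share of the counts. The non-promoter sum of FOS includes the 2 upstream regions tested only because they were higher in the treated groups, so the ratio is no separate support. In osi_DTP they held 49, 39 and 54 and 66, 61 and 79 of 418, 597 and 421 reads. In DMSO they held 6, 2 and 5 and 5, 7 and 6 of 290, 446 and 327. The difference was -1.56 ± 0.54 in osi_DTP (adjusted p = 0.181, limma, adjusted over 6044 genes) and -1.39 ± 0.54 in combo (0.149), neither called. Without combo replicate 3 both were called, at -1.56 ± 0.40 (0.024) and -1.88 ± 0.45 (0.0145). In that fit 600 of all 6044 ratios were higher and 381 lower in osi_DTP, and 543 and 668 in combo, against DMSO. No AP-1 gene was called with all libraries, when 1.09% of all genes had a higher and 1.08% a lower ratio in osi_DTP, 5.05% and 2.23% in combo against DMSO and 0% in combo against osi_DTP.

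**Figure D5:**
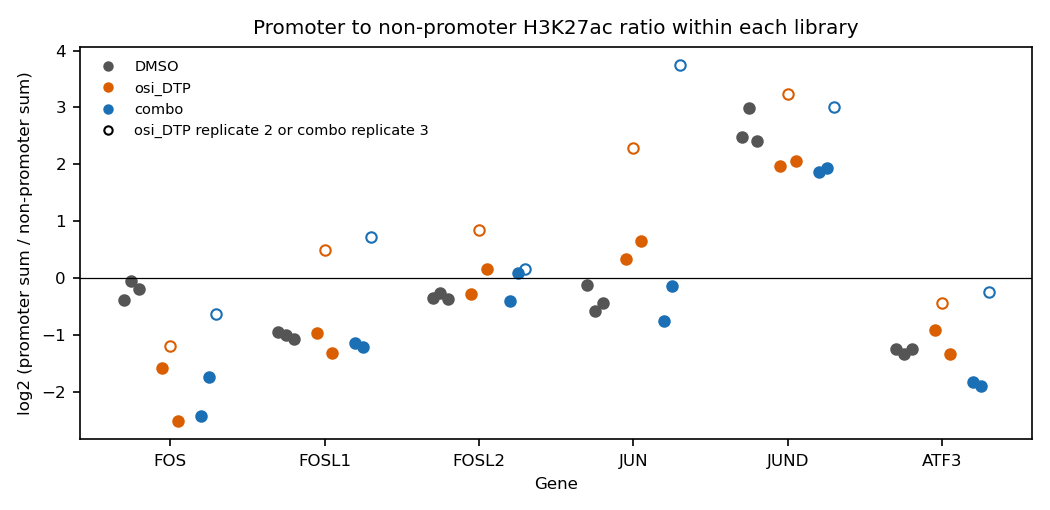
log2 ratio of the promoter sum to the non-promoter sum in each library for the 6 AP-1 genes with both classes. Colours are the 3 groups and open points the 2 promoter-heavy libraries, which lie highest in their group for all 6 genes. For FOS all treated libraries lie below the 3 DMSO libraries.

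The JUN ratio was -0.13, -0.58 and -0.45 in DMSO, 0.34, 2.28 and 0.65 in osi_DTP and -0.76, -0.14 and 3.75 in combo. The osi_DTP libraries were all above DMSO, while combo straddled it. The difference in osi_DTP was 1.48 ± 1.05 (adjusted p = 0.55, limma) and 0.88 ± 0.22 (0.0148) without both promoter-heavy libraries. In the latter fit 758 of all 6044 ratios were higher and 1037 lower in osi_DTP than in DMSO.

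By mean level over the 9 libraries, the highest promoter region of each gene stood in the order FOSL2 (64.7 CPM, 99.6th percentile of promoter regions), FOSL1 (38.4), JUND (37.1), JUN (33.3), ATF3 (24.9), FOS (17.7) and FOSB (3.64), around a median of 11.9 CPM over all promoter regions. Regions have equal width, so these levels are on 1 scale per length. This order is that of the pooled mean, in which the promoter-heavy libraries stood at 115.5 and 166.8 CPM at FOSL2, and it differed between groups. In DMSO it was FOSL1 (44.1 ± 5.04 CPM, SD, n = 3), FOSL2 (34.2 ± 0.98), JUND (26 ± 5.48), FOS (22.6 ± 8.17), JUN (20.2 ± 5.85), ATF3 (9.04 ± 2.10) and FOSB (2.37 ± 0.49). FOSL1 was above FOSL2 in all 3 DMSO libraries and below it in all 6 treated libraries. Between the other neighbours of the pooled order, JUN was above ATF3 and FOS above FOSB in all 9 libraries, FOSL1 above JUND and JUND above JUN in 5 each, and ATF3 above FOS in the 6 treated libraries but in no DMSO library. JUNB had no promoter region and is not in the order. A peak of at least 1 library covered all 65 regions, peaks of all 9 libraries covered 23, and 7 were under a peak in no DMSO library. The input held 4 to 36 reads over the member regions with a median of 14, against a median of 10 over all regions.

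Genes whose total annotated signal followed a member most closely over the 9 libraries are given as a description, since all points share libraries and the promoter share of each. For FOSL1 these were SHISAL1 (Pearson r = 0.973), CCDC33 (0.971) and MYBPH (0.969), for ATF3 PDE5A (0.993), SLC7A10 (0.992) and PIGV (0.989), for FOSL2 MIR24-2 (0.96), LRP5 (0.959) and PTPA (0.957), and for JUN TRIOBP (0.949), SMIM38 (0.946) and EVPL (0.939). For FOS they were TPTE2P5 (0.913), WDR38 (0.887) and OGFRL1 (0.861), for FOSB TUT7 (0.904), ERN1 (0.895) and PRR36 (0.892), for JUNB LINC01977, ZNF433-AS1 and KDM2B (0.96 each), and for JUND MED26 (0.995), ZNF598 (0.977) and MMP24OS (0.975). Among the members, FOSL1 followed JUN (0.892) and ran against ATF3 (-0.83).

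Other genes around AP-1 were read from 4 lists. Of the other bZIP factors, 11 genes with 17 sums, 1 sum rose and 2 fell in osi_DTP against DMSO, against 4.13% and 5.06% of all sums. The promoter of MAF, a large Maf factor, held 24, 30 and 21 reads in DMSO, 86, 320 and 129 in osi_DTP and 94, 94 and 144 in combo, and rose by 2.83 ± 0.50 (adjusted p = 0.0131, edgeR) and by 2.41 ± 0.49 (0.0119) on the log2 scale. The non-promoter sum of ATF2, a JUN partner, held 198, 476 and 410 reads in DMSO, 60, 34 and 32 in osi_DTP and 21, 17 and 2 in combo, and fell by 3.01 ± 0.61 (0.0191) and 4.63 ± 0.67 (0.00388). That of its relative ATF7 fell by 2.36 ± 0.58 (0.0364) and 2.96 ± 0.60 (0.0115). The list's median was -0.09 in osi_DTP and -0.08 in combo, against 0.10 and 0.11 over all sums.

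Of the other immediate-early genes, 13 of 15 had a region and 0 of 22 sums rose and 3 fell in osi_DTP, all non-promoter: EGR2 by 3.84 ± 0.62 (adjusted p = 0.0111, edgeR), from 461, 822 and 523 reads in DMSO to 61, 30 and 26, IER5 by 1.91 ± 0.35 (0.0141) and EGR3 by 1.84 ± 0.41 (0.0258). In combo against DMSO the same 3 sums fell, by 5.04 ± 0.67 (0.0032), 1.97 ± 0.35 (0.00722) and 2.25 ± 0.42 (0.00817), and the CCN1 promoter, named after its value was seen, rose. Of all non-promoter sums 8.79% fell in osi_DTP and 15.3% in combo against DMSO. The list's median was -0.14 in osi_DTP and -0.13 in combo against DMSO. Without both promoter-heavy libraries 3 sums rose and 9 fell in osi_DTP, with a median of -0.39, when 14.2% of all sums rose and 14% fell. For combo against DMSO, 2 rose and 11 fell, with a median of -0.54, when 20.9% and 21.8% did.

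Of the MAPK kinases, 14 of 15 had a region. Of 22 sums 1 rose and 1 fell in osi_DTP against DMSO, against 4.13% and 5.06% of all sums. In combo against DMSO 0 rose and 2 fell, against 7% and 8.88%. The MAPK13 promoter fell by 2.38 ± 0.49 (adjusted p = 0.0202, edgeR) in osi_DTP and by 2.78 ± 0.50 (0.00748) in combo. MAPK13 encodes p38 delta. The non-promoter sum of MAPK9, which encodes JNK2, fell by 1.90 ± 0.35 (0.00795) in combo. The list's median was 0.15 in osi_DTP and -0.02 in combo against DMSO.

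Of genes known as AP-1 targets, 11 of 13 had a region, and of 20 sums 2 rose and 1 fell in osi_DTP, against 4.13% and 5.06% of all sums. HBEGF, an EGFR ligand, rose at its promoter by 1.61 ± 0.32 (adjusted p = 0.0181, edgeR) and outside it by 1.58 ± 0.34 (0.0235), and in combo by 1.82 ± 0.32 (0.00705) and 2.21 ± 0.35 (0.00507). The promoter of CCND1, the gene of cyclin D1, fell by 1.56 ± 0.32 (0.0209) in osi_DTP. The list's median was -0.22 in osi_DTP and -0.05 in combo against DMSO. In combo against osi_DTP no sum of the 4 lists was called. Without both promoter-heavy libraries, 2 sums rose and 4 fell among the other bZIP factors in osi_DTP against DMSO, 3 and 2 among the MAPK kinases and 2 and 6 among the AP-1 targets. The counts in combo against DMSO were 1 and 5, 3 and 9, and 5 and 4, and the median of the MAPK kinases was -0.44. Of all 21677 sums in that fit, 3069 rose and 3029 fell in osi_DTP, and 4541 rose and 4730 fell in combo, against DMSO. In osi_DTP against DMSO the calls named from the lists were lost without DMSO replicate 2 or 3, and most of them also without osi_DTP replicate 3, with adjusted p of 0.142 or less. With a replicate block 6 of these calls were lost, those of ATF2 (0.0648), ATF7 (0.0876), IER5 (0.0545), MAPK13 (0.0648), CCND1 (0.0642) and the HBEGF non-promoter sum (0.0588). In combo against DMSO the named calls of EGR2, EGR3, IER5, ATF2, MAPK13, MAPK9 and HBEGF were kept when any library was left out, and those of MAF and ATF7 were lost without DMSO replicate 2 or 3 (0.0609 or less).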

How the data were processed

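H3K27ac ChIP-seq of H1975 cells, single-end reads of 75 nt, was analysed from the deposited read counts per region. Per the submitters' processing notes, BWA 0.7.17, MACS2 2.2.6, featureCounts 2.0.0 and ChIPseeker 1.29.1 were used with hg38. The authors deposited raw counts over 169637 regions, an annotated table of 67387 of these, and peak lists with fold enrichment (a ratio) and −log10 p- and q-values per library. 0 columns of per-sample values went unused.

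Counts were tested with edgeR 4.0.16 (filterByExpr, TMM, robust quasi-likelihood, all 9 libraries) in R 4.3.3, per region and per gene sum, and log2 promoter to non-promoter ratios (pseudocount 0.5, sums of at least 10) with limma 3.58.1. DESeq2 1.42.0 was an alternative, and bedtools 2.31.1 overlapped peaks. P-values were adjusted by Benjamini-Hochberg over all features, at 0.05. The fit was tested on simulated data. Total counts of 6263443 to 10463351 limit the precision, and intervals on fits cover the spread between these libraries.

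The members and lists were chosen with earlier results of these data known. Named regions were the highest promoter and non-promoter region of a gene and that of smallest p in each comparison, likeness names the 3 genes of highest Pearson r (log2 CPM, prior count 2), and lists name up to 3 genes by smallest p. Other regions shown were chosen after their values were seen. Promoter windows are from RefSeq, matched by symbol for 7 of the 8 genes. Deviations from group means correlated between same-numbered libraries of osi_DTP and DMSO (r of 0.334, 0.355 and 0.324), so these were read as paired from the data alone, while combo numbers, not all of whose r were over 0.1, were not (0.243, 0.0262 and -0.24 with osi_DTP, and -0.018, 0.553 and 0.362 with DMSO). 1 result of the gene lists is not reported here.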

Additional observations from a re-analysis of the deposited data

How the results depend on the processing

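Depth limits what weak regions can show. In osi_DTP against DMSO, 26 regions were called in a fit of only both groups, 26 without osi_DTP replicate 2 and combo replicate 3, and 2 at an adjusted p under 0.01, against 8, and the count ranged from 2 to 25 on leaving out 1 library. Of all 146480 regions tested in the fit of only both groups, 19930 were higher and 18728 lower. Without both libraries 14.9% of all regions were higher and 12% lower. In combo against DMSO the count of member regions was 15 with DESeq2, 12 with a loess offset, 13 in the annotated regions alone, 26 without both libraries and 2 at 0.01, against 7, with a range of 2 to 18. Over all 157919 tested regions DESeq2 called 20355 higher and 18868 lower. The loess offset called 10.5% higher and 9.03% lower, and the annotated regions alone 7991 and 8534 of 67387. Without both libraries the shares were 22.8% and 19.8%. In combo against osi_DTP the count of member regions was 4 without both libraries and 0 in each other alternative. Without both libraries 1.13% of all regions were higher and 0.982% lower. Of the gene sums in osi_DTP against DMSO, 5 were called in only both groups, 7 without both libraries and 0 at 0.01, against 3, with a range of 0 to 5. Of all 21671 sums in only both groups, 2348 rose and 2492 fell. Without both libraries 3069 of all 21677 sums rose and 3029 fell. In combo against DMSO 8 member sums were called without both libraries and 1 at 0.01, with a range of 1 to 6. Without both libraries 4541 of all sums rose and 4730 fell there. Of the ratios, against 0, 1 was called in only both groups and 2 without both libraries in osi_DTP, with a range of 0 to 2, and 2 without both libraries in combo against DMSO, with a range of 0 to 1. Of all 6043 ratios in only both groups, 421 were higher and 280 lower in osi_DTP. Without both libraries 758 of all 6044 ratios were higher and 1037 lower in osi_DTP, and 1186 and 1442 in combo, against DMSO. The cause of these shifts was not tested. Each left-out fit also had fewer samples.

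With a replicate block fitted over all 9 libraries, 8 regions and 1 gene sum were called in osi_DTP against DMSO. The same fit called 8 regions and 1 gene sum in combo against DMSO, where the numbers did not pair the samples, and 0 in combo against osi_DTP. Of all 157919 regions, 8433 rose and 8008 fell in osi_DTP, and 12445 and 15202 in combo, against DMSO. Of all 21677 sums, 262 rose and 369 fell in osi_DTP, and 886 and 1370 in combo. Apart from the calls given above, the block changed no call of a named value in osi_DTP against DMSO.

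Over all regions, TMM took the median of combo against DMSO from -0.02 to 0.23 on the log2 scale. No called region, sum or ratio of the 8 genes changed sign under any of the alternatives run. At chr14:75267138 near FOS, the uncalled value in combo against osi_DTP was -0.016 to 0.73 on leaving out 1 library and 0.88 without both libraries. Of 65 regions, 12 uncalled ones changed sign in osi_DTP against DMSO, 38 in combo against osi_DTP and 18 in combo against DMSO. The 65 regions under a peak stayed 65 at a −log10 q of at least 5.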
